A study of Homo sapiens with 2 samples.

Results

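The autophagy core machinery of NB4 cells was examined as the transcripts of 40 genes among the 11619 genes listed. They were picked by a rule on gene names, as the numbered ATG genes, the ATG8 genes (GABARAP and MAP1LC3), the ULK kinases, WIPI1 and WIPI2, and 15 named partners such as BECN1 and SQSTM1. The names ULK2, ULK4, ATG9B, MAP1LC3A, MAP1LC3C and OPTN also met the rule but were not among the listed genes. NB4 is a human acute promyelocytic leukemia line with the PML/RARα fusion gene. One group, sh-CRNDE, received a lentiviral shRNA against the long non-coding RNA CRNDE, and the other, sh-Control, a non-targeting shRNA by the same route, and RNA was taken on day 3. With 1 library in each group, the differences below have no replicate check and no test could be run. The sources used here do not say which CRNDE shRNA the sequenced cells carried.

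Macroautophagy encloses cytoplasm in a double membrane and delivers it to lysosomes. The ULK1 kinase complex starts the process, and a class III phosphatidylinositol 3-kinase (PI3K) complex then marks the membrane with a lipid that WIPI proteins read. ATG9A and the ATG2 proteins bring lipid to the growing membrane. Linked conjugation reactions attach ubiquitin-like ATG8 proteins to it, cargo receptors such as SQSTM1 (p62) bind ATG8 proteins and cargo at once, and SNARE proteins fuse the closed autophagosome with the lysosome. In myeloid leukemia cells autophagy is known for its activity during granulocytic differentiation and for its part in the degradation of PML/RARα. Transcript levels say nothing directly about autophagic flux, which depends on protein modification and turnover.

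The values were FPKM, fragments scaled to transcript length and to library size, so levels of different genes are on a per-length scale. The change of a gene is the difference in log2(FPKM + 1), sh-CRNDE minus sh-Control, and a change past 1.5-fold in size (0.58 on the log2 scale) was taken as the limit for calling a gene higher or lower. Adding 1 makes changes at low levels look smaller than they are. The number of reads behind each value is unknown. CRNDE itself was at 5.92 FPKM under sh-Control and 1.85 FPKM under sh-CRNDE, a change of -1.28. Of the promyelocyte genes, MPO was at 1135 FPKM under sh-Control and 738 FPKM under sh-CRNDE and PRTN3 at 200.5 and 41.8 FPKM, AZU1, CTSG and CD33 were present in both libraries, and ELANE was not among the listed genes. Fewer cells of a kind and less RNA per cell cannot be told apart in such bulk libraries.

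As a group, the 40 genes had nearly the same summed level in both libraries. Their FPKM values summed to 222.6 under sh-Control and 222.7 under sh-CRNDE, and their median was 4.14 and 3.85 FPKM, beside 3.95 and 3.89 FPKM over all listed genes. The median change was -0.06, against -0.01 over all genes. The middle of the distribution, from the 25th to the 75th percentile, ran from -0.29 to 0.24 for the autophagy genes and from -0.26 to 0.23 for all genes. Of the 40 genes, 17 had a change above 0 and 23 a change below 0. Only 5 were past 1.5-fold, which is 12.5% of the group against 17.2% of all genes. ATG14 and GABARAP were higher under sh-CRNDE, as were 8.38% of all genes, and GABARAPL1, ATG9A and SQSTM1 were lower, as were 8.83% of all genes. The share past 1.5-fold was thus not above the background.

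**Figure D1:**
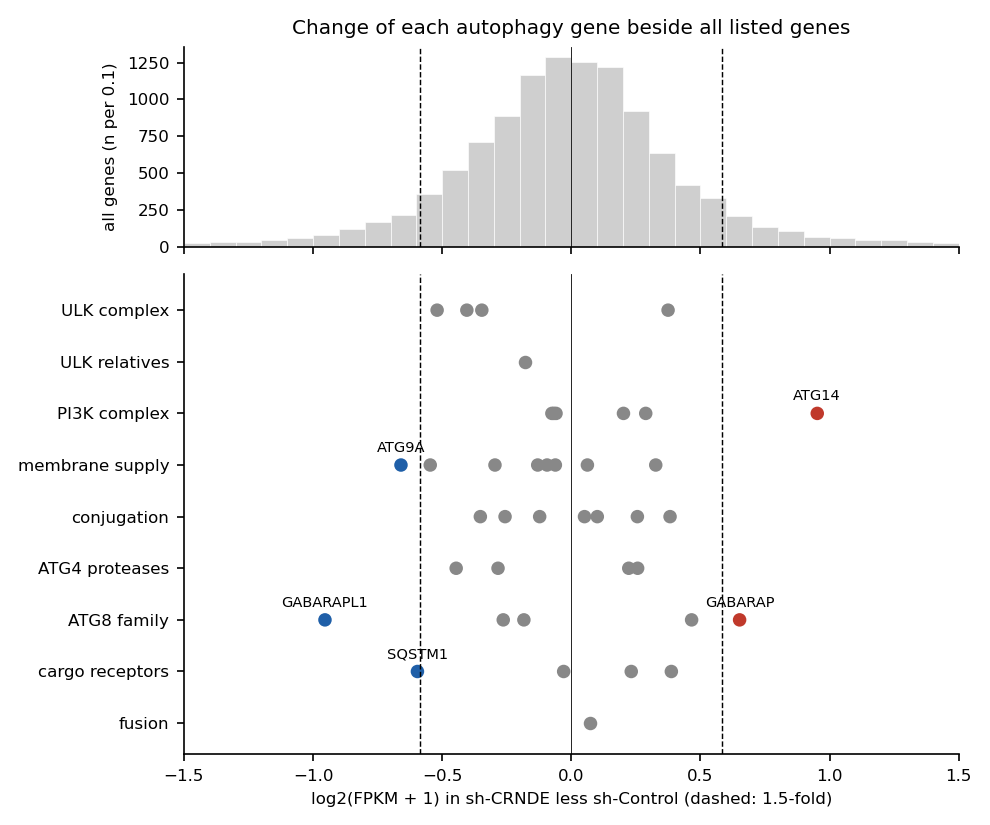
Change of each autophagy gene (bottom, 1 point per gene, by role) beside the distribution over all listed genes between -1.5 and 1.5 (top, genes per 0.1), with dashed lines at 1.5-fold. Red points (ATG14 and GABARAP) are higher and blue points (GABARAPL1, ATG9A and SQSTM1) lower past that limit, and the other 35 genes lie within it.

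The ULK complex receives the signals from nutrients and energy. Its 4 genes had a median change of -0.38, and none was past 1.5-fold, beside 17.2% of all genes. RB1CC1 (FIP200), the scaffold of the complex, was at 12.4 FPKM under sh-Control and 16.4 FPKM under sh-CRNDE, a change of 0.37. The other 3 genes lay on the other side of 0. The adaptor ATG13 was at 13.1 and 9.68 FPKM, its partner ATG101 at 5.93 and 3.83 FPKM, and the kinase ULK1 at 2.49 and 1.74 FPKM, with changes of -0.40, -0.52 and -0.35. RB1CC1 was therefore at 0.945 times the level of ATG13 under sh-Control and 1.69 times under sh-CRNDE, while the ratio of ATG13 to ULK1 was 5.28 and 5.55. RB1CC1 had the lowest transcript GC content of the complex at 37.6%, and ATG13, ATG101 and ULK1 were at 52.8%, 59.7% and 64.2%. A gene on the other strand (ENSG00000257663) covers 42.8% of the exonic bases of ATG101. ULK3, a relative of ULK1, was at 9.11 and 7.94 FPKM, a change of -0.18.

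The PI3K complexes held the highest change of the group, in ATG14. The protein directs the lipid kinase to the site where autophagosomes form. ATG14 (ENSG00000126775, chromosome 14 from 55366391 to 55411830 on the minus strand of GRCh38, 10 exons) was at 1.24 FPKM under sh-Control and 3.34 FPKM under sh-CRNDE, 2.69 times as much, a change of 0.95. A change below this value was seen in 96.3% of all genes. UVRAG, which takes the place of ATG14 in the second form of the complex, was at 3.08 and 2.87 FPKM, a change of -0.08. The ratio of ATG14 to UVRAG was 0.404 under sh-Control and 1.16 under sh-CRNDE, so the order of both genes was exchanged. The subunits shared by both forms were within 1.5-fold. BECN1 (Beclin 1) was at 5.79 and 7.29 FPKM, the regulatory subunit PIK3R4 at 8.78 and 10.2 FPKM and the catalytic subunit PIK3C3 at 1.71 and 1.61 FPKM, with changes of 0.29, 0.20 and -0.06. AMBRA1, a regulator that binds Beclin 1, was at 4.42 and 4.17 FPKM.

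ATG14 overlaps a neighbour on the other strand, FBXO34, and the library kit did not mark strand. Of the exonic bases of ATG14, 22.2% also lie in exons of FBXO34, through 3 of its 12 annotated transcripts, and 0% lie in exons of its canonical transcript. FBXO34, which encodes an F-box protein, was at 1.75 FPKM under sh-Control and 0.0819 FPKM under sh-CRNDE, a change of -1.35 and opposite to that of ATG14. The FPKM values of both genes summed to 2.997 and 3.42, a change of 0.15, and this sum also depends on the lengths used for each gene. Reads from the overlapping stretch cannot be assigned to either gene without strand, and whether they moved from one gene to the other between the libraries was not tested. BECN1 has a like neighbour in CNTD1, which covers 37.7% of its exonic bases and was at 0.858 FPKM under sh-Control and 1.69 FPKM under sh-CRNDE.

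The 250 bases before the start of ATG14 are shown because it had the highest change of the group and holds an E-box. The E-box CACGTG, which reads the same on both strands, is the core of the motif bound by MYC and by the lysosomal regulators TFEB and TFE3, and it is in capitals. The sequence is chr14:55411831-55412080, minus strand, from RefSeq promoters on GRCh38.p14.
ATG14: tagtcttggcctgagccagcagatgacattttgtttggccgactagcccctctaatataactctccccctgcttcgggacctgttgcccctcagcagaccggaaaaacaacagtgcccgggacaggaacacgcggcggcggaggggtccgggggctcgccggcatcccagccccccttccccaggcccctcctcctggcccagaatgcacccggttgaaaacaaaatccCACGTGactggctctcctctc
The E-box begins 21 bases before the start (position -21). In windows from 250 bases before to 50 bases after the start, RefSeq gave 35 of the 40 genes. These had 43 start sites, and for each gene only the one nearest the canonical start was searched. Of the 35 genes, 3 held the E-box, that is 8.57% against 7.26% of all 35116 promoters, among which a gene can have several. The others, ATG3 and ULK3, were singled out after this search and lay within 1.5-fold. ATG3 held the box at positions -18 and 6 and ULK3 at position -172. Their 30-base windows are chr3:112561963-112561992, chr3:112561940-112561969 and chr15:74843311-74843340, all on the minus strand, with the E-box in capitals.
ATG3 at -18: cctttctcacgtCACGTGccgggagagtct
ATG3 at 6: agagtctagtgtCACGTGaggccccggtgg
ULK3 at -172: cctccgtatcccCACGTGggccctgcagga
The longer form TCACGTGA, also its own reverse complement and known from lysosomal genes, contains the E-box and was in the window of ATG3 alone, which is 2.86% of 35 genes against 0.980% of all promoters. A match is a description of the sequence and not a binding site.

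Membrane supply had 8 genes, with a median change of -0.11 and FPKM sums of 36.0 under sh-Control and 31.5 under sh-CRNDE. ATG9A, the lipid scramblase whose vesicles seed the membrane, was lower. ATG9A (ENSG00000198925, chromosome 2 from 219219380 to 219229717, minus strand, 16 exons) was at 3.50 and 1.85 FPKM, a change of -0.66, and 7.13% of all genes had a change below it. With the median of genes of like GC content subtracted, its change was -0.46 and within 1.5-fold. On the same strand an overlapping readthrough gene (ENSG00000284820), which was not among the listed genes, covers 48.6% of its exonic bases. ATG2A, which moves lipids along its length, followed at 5.25 and 3.28 FPKM, a change of -0.55 and just within 1.5-fold, and its paralog ATG2B was at 4.02 and 3.09 FPKM, a change of -0.30. VMP1, a scramblase of the endoplasmic reticulum, was on the other side of 0 at 4.26 and 5.60 FPKM, a change of 0.33.

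The genes that read the lipid mark differed little between the libraries. WDR45B (WIPI3) had the highest level of the membrane supply genes at 12.9 FPKM under sh-Control and 11.7 FPKM under sh-CRNDE, WIPI2 was at 3.65 and 3.86 FPKM and WDR45 (WIPI4) at 1.71 and 1.54 FPKM. WIPI1 had the lowest at 0.677 and 0.607 FPKM. The 4 genes thus kept their order, and their changes ran from -0.13 to 0.06. Another gene on the same strand covers 42.2% of the exonic bases of WDR45. ARSG, on the other strand, covers 28.3% of those of WIPI1, through 1 of its 8 annotated transcripts. ARSG was at 0.937 FPKM under sh-Control and 0.812 FPKM under sh-CRNDE, above WIPI1 in both. How reads were assigned in these stretches was not tested.

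**Figure D2:**
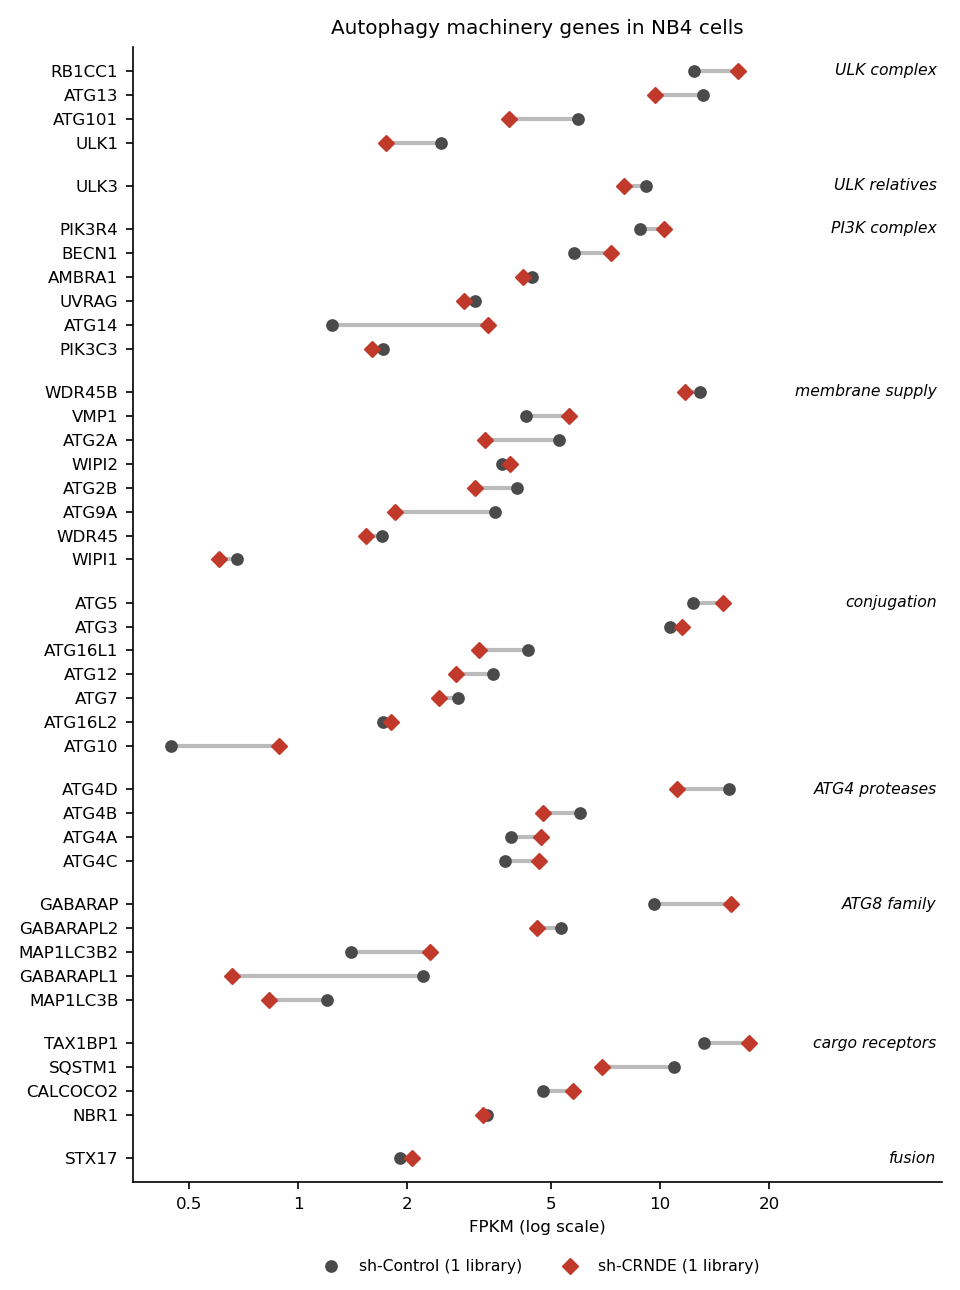
FPKM of the 40 autophagy genes on a log axis, grouped by role, with 1 point per library (grey circle, sh-Control; red diamond, sh-CRNDE). Levels run from 0.446 FPKM (ATG10, sh-Control) to 17.6 FPKM (TAX1BP1, sh-CRNDE), and the longest connecting lines belong to GABARAPL1, ATG14 and ATG10.

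The conjugation genes had a median change of 0.05 over 7 genes, and none was past 1.5-fold, beside 17.2% of all genes. ATG5, which is joined to ATG12 in the enzyme that lipidates ATG8 proteins, was highest at 12.3 and 14.9 FPKM, a change of 0.26. ATG12 was at 3.45 and 2.73 FPKM and ATG16L1, which carries the ATG12-ATG5 conjugate to the membrane, at 4.32 and 3.17 FPKM, with changes of -0.26 and -0.35. The ratio of ATG5 to ATG16L1 was 2.85 under sh-Control and 4.70 under sh-CRNDE. The 3 genes of one complex thus lay on both sides of 0. ATG3, the E2-like enzyme for ATG8 proteins, was at 10.6 and 11.5 FPKM, the E1-like enzyme ATG7 at 2.76 and 2.45 FPKM, and ATG16L2 at 1.71 and 1.81 FPKM. VGLL4, on the other strand, covers 29.9% of the exonic bases of ATG7, and how reads were assigned there was not tested. ATG10, the E2-like enzyme for ATG12, was the lowest of all 40 genes under sh-Control at 0.446 FPKM and was at 0.884 FPKM under sh-CRNDE, a change of 0.38 that became 0.85 when 0.1 was added in place of 1.

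The ATG4 proteases cut ATG8 proteins to their active form and remove them from lipid again. ATG4D was the highest of the 4 genes, at 15.5 FPKM under sh-Control and 11.1 FPKM under sh-CRNDE, a change of -0.45, and its share of the summed ATG4 level was 53.3% and 44.2%. ATG4B, the member with the broadest activity, was at 5.99 and 4.75 FPKM, a change of -0.28. ATG4A and ATG4C were on the other side of 0, at 3.87 and 4.68 FPKM and at 3.72 and 4.64 FPKM, with changes of 0.22 and 0.26. The 4 genes split evenly in direction, and under sh-CRNDE the last 3 stood at nearly one level. The transcripts of ATG4D overlap those of KRI1 on the other strand over 17.0% of their exonic bases. KRI1 was at 33.3 FPKM under sh-Control and 29.0 FPKM under sh-CRNDE, above ATG4D in both libraries, a change of -0.19. How reads from the overlapping stretch were assigned was not tested, so the level and share of ATG4D carry this limit.

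The ATG8 family held genes past 1.5-fold in both directions. Of its 5 listed genes 1 was higher and 1 lower, beside 8.38% and 8.83% of all genes, and so few genes make a coarse share. GABARAP (ENSG00000170296, chromosome 17 from 7240008 to 7242449, minus strand, 4 exons), the most abundant member, was at 9.62 FPKM under sh-Control and 15.7 FPKM under sh-CRNDE, a change of 0.65. GABARAPL1 (ENSG00000139112, chromosome 12 from 10212458 to 10223128, plus strand, 4 exons), a close paralog, was at 2.21 and 0.657 FPKM, a change of -0.95, the lowest change among the 40 genes. A change below this was seen in 3.56% of all genes. The ratio of GABARAP to GABARAPL1 was 4.35 under sh-Control and 23.9 under sh-CRNDE. GABARAPL2 (GATE-16) was at 5.32 and 4.57 FPKM, a change of -0.18. All these proteins serve as anchors for cargo receptors and for the ULK and fusion machinery.

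Despite these opposite changes the makeup by subfamily was nearly the same. The 3 GABARAP genes summed to 17.1 FPKM under sh-Control and 20.9 FPKM under sh-CRNDE, which was 86.8% and 86.9% of the ATG8 level, and the LC3 genes to 2.60 and 3.15 FPKM, which was 13.2% and 13.1%. Within the family, GABARAP took 48.7% and 65.2% of the level and GABARAPL1 11.2% and 2.73%. The summed level of the 5 genes was 19.8 and 24.1 FPKM, a log2 ratio of 0.28. GABARAP thus accounted for a larger part of the ATG8 transcripts under sh-CRNDE, and GABARAPL1 for a smaller one.

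**Figure D3:**
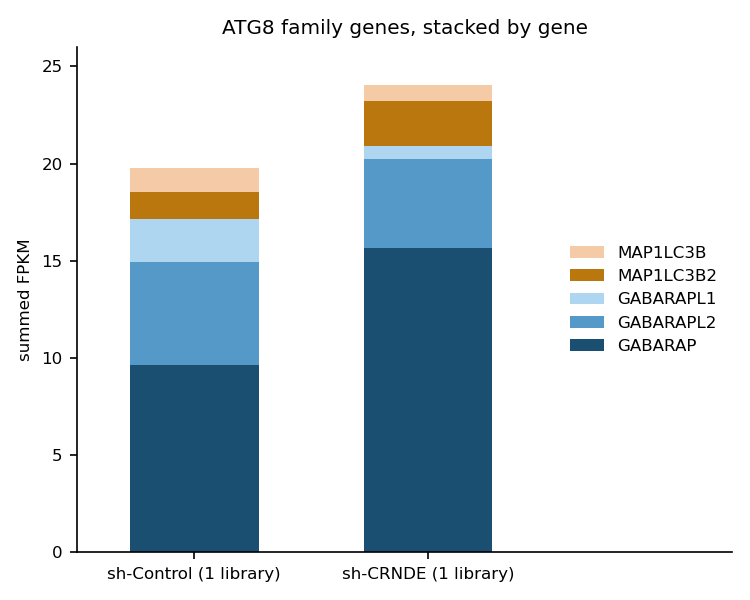
Summed FPKM of the 5 ATG8 family genes in each library (1 bar per library, no error bars because there was 1 library per group), stacked by gene with the GABARAP genes in blue and the LC3 genes in orange. The bars reach 19.8 and 24.1 FPKM, and the GABARAP segment grows from 9.62 to 15.7 FPKM while that of GABARAPL1 shrinks from 2.21 to 0.657 FPKM.

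The assignment of reads limits the GABARAP values unequally. Of the 50-base windows of the canonical GABARAP transcript, 52.4% also occur in transcripts of another annotated gene, mainly a readthrough gene on the same strand (ENSG00000262526) and a processed pseudogene, neither among the listed genes. For GABARAPL1 the share was 1.69%, through GABARAPL3. The coding sequences of GABARAP and GABARAPL1, 354 bases each, were 76.8% identical, and that of GABARAP was 65.1% identical to GABARAPL2 and 55.2% to MAP1LC3B. A gene on the other strand (ENSG00000279641) also covers 15.8% of the exonic bases of GABARAP. How the counting divided reads between GABARAP and its readthrough gene or this neighbour was not tested.

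MAP1LC3B and MAP1LC3B2 are a different case. MAP1LC3B (LC3B, chromosome 16 from 87383953 to 87404779) was at 1.199 FPKM under sh-Control and 0.832 FPKM under sh-CRNDE, a change of -0.26, and MAP1LC3B2 (chromosome 12 from 116548105 to 116576606) at 1.40 and 2.32 FPKM, a change of 0.47. MAP1LC3B2 thus took 53.9% of the LC3 level under sh-Control and 73.6% under sh-CRNDE. Their coding sequences are identical in 376 of 378 bases (99.5%). The differences are C30G and A338G, counted from 1 at the A of the start codon, with the base of MAP1LC3B first. The windows around both are shown in coding direction, with the differing base in capitals, because a read within the coding sequence can be told apart at these positions only (coding bases 16 to 45 and 324 to 353, GENCODE 44 on GRCh38).
MAP1LC3B, 16 to 45: accttcaagcagcgCcgcaccttcgaacaa
MAP1LC3B2, 16 to 45: accttcaagcagcgGcgcaccttcgaacaa
MAP1LC3B, 324 to 353: cctgtacatggtctAtgcctcccaggagac
MAP1LC3B2, 324 to 353: cctgtacatggtctGtgcctcccaggagac
Of the 50-base windows of each transcript, 18.3% in MAP1LC3B and 49.8% in MAP1LC3B2 also occur in another gene. The separate values of this pair are therefore uncertain. Their transcripts differ in length (2147 and 818 bases), so the sum of their FPKM also depends on how reads were divided between them, and so does the LC3 level given above.

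Of the 4 cargo receptors, SQSTM1 was lower and the others were within 1.5-fold, beside 17.2% of all genes past that limit. SQSTM1 (p62), which links ubiquitinated cargo to ATG8 proteins and is itself degraded by autophagy, was at 10.9 FPKM under sh-Control and 6.90 FPKM under sh-CRNDE, a change of -0.60 and just past 1.5-fold. The gene (ENSG00000161011, chromosome 5 from 179806398 to 179838078, plus strand, 8 exons) had a change above that of 8.40% of all genes, and with the GC subtraction described below its change was -0.44 and within 1.5-fold. TAX1BP1, a receptor for ubiquitinated cargo, was at 13.2 and 17.6 FPKM, a change of 0.39. The share of SQSTM1 in the summed receptor level was 34.0% under sh-Control and 20.6% under sh-CRNDE, and that of TAX1BP1 41.0% and 52.5%. CALCOCO2 (NDP52) was at 4.73 and 5.73 FPKM and NBR1 at 3.32 and 3.23 FPKM, with changes of 0.23 and -0.03. The ratio of TAX1BP1 to SQSTM1 was 1.21 and 2.55. MRNIP, listed as C5orf45, lies on the other strand over 55.7% of the exonic bases of SQSTM1. Its canonical transcript alone covers 21.5%. It was at 0.484 and 0.549 FPKM, far below SQSTM1 in both libraries.

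For fusion, the list held STX17 alone, the SNARE that is recruited to closed autophagosomes, at 1.92 FPKM under sh-Control and 2.06 FPKM under sh-CRNDE, a change of 0.07. Its partners were taken from a wider list of 98 autophagy genes outside the core, of which 88 were listed. Only those past 1.5-fold are given here. SNAP29, the SNARE that pairs with STX17, was at 3.78 and 1.23 FPKM, a change of -1.10. YKT6, which acts beside STX17 in the same step, was at 29.0 and 9.01 FPKM, a change of -1.58 and the lowest of the wider list. LAMP2, a lysosomal membrane protein needed for fusion, was higher at 19.9 and 32.7 FPKM, a change of 0.69. Of the 19 listed genes for fusion with lysosomes, 1 was higher and 2 were lower past 1.5-fold, 15.8% against 17.2% of all genes. The other 16 lay within that limit, and the median change of the 19 genes was 0.04.

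Over the 88 genes of the wider list the picture was close to the background. In all, 4 were higher and 6 lower, 11.4% past 1.5-fold against 17.2% of all genes, and the median change was -0.02. Of the 28 genes of mTORC1 and its inputs, 1 was higher and 2 were lower, 10.7% against 17.2% of all genes. LAMTOR5, a Ragulator subunit that anchors Rag GTPases to the lysosome, was lower at 18.0 and 6.20 FPKM, a change of -1.40. AKT1S1 (PRAS40), an mTORC1 inhibitor, was lower at 5.64 and 2.88 FPKM, a change of -0.78. RRAGA, one of the Rag GTPases, was at 2.56 FPKM under sh-CRNDE but listed at 0 under sh-Control, and no fold is given for a single-exon gene listed at 0. It is the 1 mTORC1 gene counted as higher. With genes at 0 in either library left out, 3 of 87 genes of the wider list were higher. MTOR itself was at 12.7 and 9.55 FPKM, a change of -0.37. PRKAA1, a catalytic AMPK subunit, was higher at 6.19 and 11.2 FPKM, a change of 0.76. It was the only one of 7 listed AMPK genes past 1.5-fold, 14.3% against 17.2% of all genes.

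Of 11 other regulators 1 gene (9.09%) and of 18 other receptors 2 genes (11.1%) were past 1.5-fold, against 17.2% of all genes. NRBF2, which binds the ATG14 form of the PI3K complex, was lower at 17.8 and 11.2 FPKM, a change of -0.62, so that ATG14 and NRBF2 lay on opposite sides of 0. NCOA4, the receptor for ferritin, was lower at 88.8 and 52.7 FPKM, a change of -0.74. RETREG3, a receptor for the endoplasmic reticulum listed as FAM134C, was higher at 2.15 and 6.73 FPKM, a change of 1.29. None of the 5 listed transcription factors was past 1.5-fold, and TFEB was not among the listed genes. TFE3 had a change of -0.13, and MITF was at 0.340 and 0.675 FPKM.

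The change of the autophagy genes went with the GC content of their transcripts. Of the 20 genes with the lower GC content, from 34.7% to 46.7%, 13 had a change above 0 and 7 below, with a median of 0.23. Of the 20 genes from 48.5% to 64.8% GC, 4 had a change above 0 and 16 below, with a median of -0.23. SQSTM1 at 57.1% and ATG9A at 58.9% were in the second set, as were GABARAP at 48.8% and GABARAPL1 at 48.9%, while ATG14 was at 44.5%. Across the 40 genes Spearman's rho between GC content and change was -0.58 and Pearson's r -0.53. All listed genes showed the same slope in direction, with a rho of -0.39 and an r of -0.24 over 11508 genes, and a median change of 0.18 in the lowest and -0.31 in the highest of 10 GC bins. These values describe genes that share 2 libraries, and genes are not replicates.

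Subtraction of the median of each GC bin from the changes left ATG14 at 0.87, GABARAP at 0.66 and GABARAPL1 at -0.94, all still past 1.5-fold. It brought SQSTM1 to -0.44 and ATG9A to -0.46, within 1.5-fold. In the wider list it brought AKT1S1 to -0.47, PRKAA1 to 0.58 and LAMP2 to 0.51, so those 3 were within the limit as well. It also took genes past the limit, with SESN3 from -0.52 to -0.71 and RPTOR from 0.39 to 0.59, so that 3 genes of the wider list were higher and 6 lower after it. Both genes, regulators of mTORC1 signalling, were singled out after their values were seen. GABARAP and GABARAPL1 had opposite changes with and without the subtraction. They fell in the same GC bin, with a median change of -0.01, so the subtraction moved both alike and could not alter this. The part of GC content in these changes was not tested further.

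**Figure D4:**
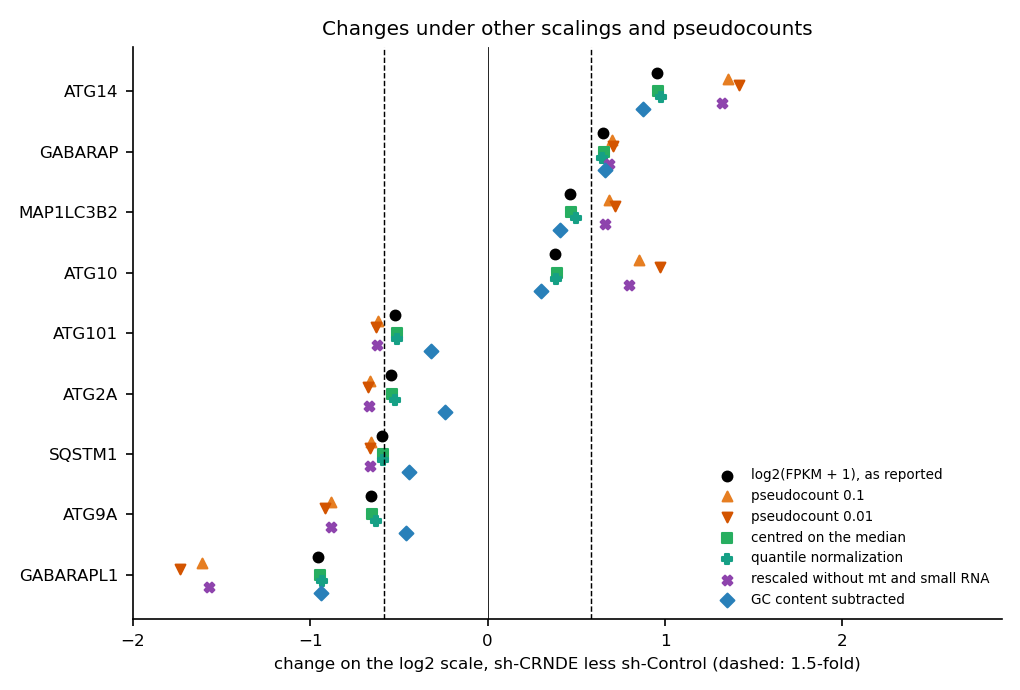
Change of the 9 autophagy genes that were past 1.5-fold in at least one of 7 computations (1 symbol per computation, dashed lines at 1.5-fold). ATG14, GABARAP and GABARAPL1 lie outside the lines throughout, while SQSTM1 and ATG9A come within them when GC content is subtracted.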

How the data were processed

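NB4 cells infected with sh-CRNDE or sh-Control lentivirus gave 1 library each. The authors deposited FPKM values per gene. Per the labels, libraries were made with the TruSeq v2 kit, and the submitters' processing notes name fastp 0.20.0, HISAT2 2.0.4, StringTie 1.2.3 and GRCh38. The annotation release is not given in the sources used here. Every listed gene was above 0.5 FPKM in at least one library, and read depth is unknown. The FPKM values summed to 141217 in sh-Control and 170373 in sh-CRNDE, and to 140611 and 141766 without mitochondrial and small RNA genes.

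From the deposited values, log2(FPKM + 1) was taken without further scaling, and 1.5-fold was used as the limit, called by size only. Autophagy genes were found by symbol, with none removed by a filter. The genes and lists were chosen with earlier results of these data known. All 40 genes are named, with values for those past 1.5-fold and for the highest and lowest of each role. Of the wider list those past 1.5-fold are named. A few genes (MTOR, TFE3, MITF and the neighbours FBXO34, CNTD1, KRI1, C5orf45, ARSG and VGLL4) were added after their values were seen. Coordinates, GC content, exon overlaps and coding sequences come from GENCODE 44, where 11508 of 11619 identifiers matched, and promoters from RefSeq on GRCh38.p14. The planned comparison of ATG8 proteins was replaced by one of coding sequences. Of the 40 genes, 8 share at least 10% of their exonic bases with a gene on the other strand and 3 with one on the same strand. Other pseudocounts, scalings, limits, filters and a GC subtraction in 10 bins were tried. The arithmetic of changes and calls was checked on the sh-Control values with known folds put into some genes and no noise added. The overlap and sequence steps were not checked in this way. The computations were run in Python 3.11.15 with numpy 2.4.6, pandas 2.3.3 and matplotlib 3.10.9.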

Additional observations from a re-analysis of the deposited data

How the results depend on the processing

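Each result rests on 1 library per group, so no library could be left out, and no spread between cultures is known. No paired analysis was possible because there was 1 library per group and no test. The median change of the autophagy genes stayed between -0.10 and -0.04 under the alternatives run, and the summed ATG8 level between 0.27 and 0.29 on the log2 scale under 3 scalings chosen after seeing the data. The 2-fold limit does not act on the median. Counts moved more. With a pseudocount of 0.1, 4 autophagy genes were higher and 5 lower, in the wider list 8 were higher, and 3301 of all genes were past 1.5-fold. With 0.01 these were 4, 5, 10 and 3481. Rescaling to equal sums (TPM-like) without mitochondrial and small RNA genes, which makes the values larger relative to the pseudocount but leaves a 0 at 0, gave 4, 5, 7 and 3133. ATG10, MAP1LC3B2, ATG2A and ATG101 were the genes added in all 3. At 2-fold on the log2(FPKM + 1) scale, 0 autophagy genes were higher and 0 lower. In the wider list 2 were higher and 3 lower, and 774 of all genes remained past the limit. The added 1 matters here. In plain FPKM, ATG14 under sh-CRNDE was at 2.69 times and GABARAPL1 at 0.297 times the level under sh-Control. With GC content subtracted, 2 autophagy genes were higher and 1 was lower, and 1700 of 11508 genes were past 1.5-fold. Of the 40 genes, 35 kept their direction in 6 other scalings and pseudocounts. A pseudocount cannot reverse a direction, so only the scalings bear on this. AMBRA1, STX17, ULK3 and WDR45 reversed with GC content subtracted, and NBR1 with quantile normalization. Size was less stable. GC subtraction moved 20 genes by more than 0.1 and brought 2 others within 1.5-fold. Some changes shrank, as ULK1 from -0.35 to -0.04 and ATG4D from -0.45 to -0.14. Others grew, as ATG16L2 from 0.05 to 0.36. FPKM keep no counts, so the precision of genes near 1 FPKM, GABARAPL1 and MAP1LC3B among them, is unknown.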
